A study of Homo sapiens with 4 samples.

Results

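Neuroendocrine lineage genes were examined in 4 prostate cancer cell lines. The group was set by name: SYP, CHGA, CHGB, NCAM1, INSM1, SCG2, SCG5, REST and SOX2. No cutoff on measured values was used, but earlier results of these data were known when the genes were chosen. Of these 9 genes, REST, SYP and NCAM1 were measured among the 22637 genes of the count table. CHGA, CHGB, INSM1, SCG2, SCG5 and SOX2, the other 6, were not analysed here. The cell lines were LNCaP, a castration-sensitive human prostate adenocarcinoma line, and C4-2B, a castration-resistant line that descends from it, together with LN-OlapR and 2B-OlapR, which were derived from LNCaP and C4-2B respectively. Both resistant lines arose by chronic exposure to rising doses of the PARP inhibitor olaparib over about a year and were maintained in the drug. All 4 were plated without it before RNA was taken, and all are labelled untreated. Each was sequenced as 1 library from 1 RNA sample, so each resistant subline is represented by a single culture. A difference between 2 libraries therefore has no replicate check, no p-value is given for it, and the intervals cover counting error only.

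Neuroendocrine cells store peptide hormones in dense-core granules and share part of their program with neurons. Granins such as the chromogranins package the granule cargo, synaptophysin (SYP) sits in the vesicle membrane, and NCAM1 is a cell adhesion molecule used as a diagnostic surface marker. In non-neuronal cells, the zinc finger repressor REST recruits corepressors to neuronal genes and keeps them off. In prostate cancer, a luminal adenocarcinoma can lose luminal features and acquire neuroendocrine ones under therapy, with transcription factors such as INSM1 and SOX2 linked to that change.

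The libraries held between 19950537 and 26394267 counts. Levels are given as normalized CPM, which are counts relative to library size after TMM scaling. The limit that a count of 0 allows was set at 3 counts, or 0.112 to 0.147 normalized CPM depending on the library. The labelled cell type was compared with fixed markers. All 12 luminal prostate genes, among them FOXA1, HOXB13, KRT8 and KRT18, had at least 10 normalized CPM in each of the 4 libraries, and their summed level ran from 4553 to 8193. Of 3 basal epithelial markers only KRT14 was measured, at 0.112 to 0.557 normalized CPM. Of 4 fibroblast markers COL1A1 was measured, at 7.14 to 16.1, and PTPRC, PECAM1 and CDH5 were not analysed here. The LNCaP library stood apart in KLK3, which encodes prostate-specific antigen, at 53.1 normalized CPM against 1870 to 2685 in the other 3 lines. Both comparisons that use LNCaP rest on that library, and the comparison of 2B-OlapR with C4-2B does not.

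REST, the repressor of the neuronal program, was the most abundant of the measured members. It is listed as ENSG00000084093.19 and spans 56907876 to 56966678 of chromosome 4 (plus strand) in GENCODE release 29 on GRCh38. LNCaP had 2044 counts, or 76.0 normalized CPM (95% Poisson interval 72.8 to 79.4), against 1855 counts in LN-OlapR, or 79.5 (75.9 to 83.2). C4-2B had 1177 counts, or 57.5 normalized CPM (54.3 to 60.9), and 2B-OlapR had 1127 counts, or 54.4 (51.3 to 57.7). From highest to lowest, the order was LN-OlapR, LNCaP, C4-2B and 2B-OlapR. Each resistant line overlapped its own parent within counting error, whereas neither line of the LN background overlapped either line of the 2B background. The level of REST was higher than that of 81.4% to 87.5% of all genes in the table, depending on the library.

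The log2 ratio of REST between 2B-OlapR and C4-2B was -0.08 (95% interval -0.20 to 0.04). Between LN-OlapR and LNCaP it was 0.06 (-0.03 to 0.16), and scaling by total counts turned its sign, to -0.019. Both intervals include 0, so no difference in REST was detectable between a resistant line and its parent at this depth. In counting error alone, both intervals exclude a change of 1.5-fold between the libraries compared, and variation between cultures is not covered. Between the parental lines, REST was lower in C4-2B than in LNCaP, with a log2 ratio of -0.40 (-0.51 to -0.30), or 0.757-fold. This was beyond counting error but under the 2-fold limit, and 23.7% of the 15580 genes analysed in that comparison had a lower ratio. The end of REST is overlapped for 3309 bases by NOA1 on the opposite strand, and whether the counting used strand is not given in the sources used here. NOA1 had 64.0, 62.8, 66.7 and 105.2 normalized CPM in LNCaP, LN-OlapR, C4-2B and 2B-OlapR, and its part in the REST values was not tested.

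SYP encodes synaptophysin, an integral protein of small synaptic-like vesicles and one of the standard markers used to diagnose neuroendocrine tumors. It is listed as ENSG00000102003.12 and spans 49187804 to 49200259 of chromosome X (minus strand) in the same annotation. LNCaP had 71 counts, or 2.64 normalized CPM (95% Poisson interval 2.06 to 3.33), against 73 counts in LN-OlapR, or 3.13 (2.45 to 3.93). C4-2B had 50 counts, or 2.44 normalized CPM (1.81 to 3.22), and 2B-OlapR had 59 counts, or 2.85 (2.17 to 3.67). SYP was thus detected in every line at a low level, and all 4 intervals overlapped. The log2 ratio was 0.22 (-0.35 to 0.79) between 2B-OlapR and C4-2B and 0.24 (-0.25 to 0.74) between LN-OlapR and LNCaP. The point values lay above 0 in both pairs, but these counts are too few to separate the lines. Between C4-2B and LNCaP, the log2 ratio of SYP was -0.11 (-0.66 to 0.43). In counting error alone, all 3 SYP intervals exclude a change of 2-fold between the libraries compared.

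NCAM1 encodes the neural cell adhesion molecule CD56. It is listed as ENSG00000149294.17 and spans 112961247 to 113278436 of chromosome 11 (plus strand). It had 4 counts in LNCaP against 12 in LN-OlapR, and 1 in C4-2B against 6 in 2B-OlapR. In normalized CPM the levels were 0.149 (0.041 to 0.381) in LNCaP and 0.514 (0.266 to 0.899) in LN-OlapR. In C4-2B the level was 0.049 normalized CPM (0.0012 to 0.272), under the 3-count limit, and in 2B-OlapR it was 0.290 (0.106 to 0.630). NCAM1 was therefore close to the detection limit throughout, and it fell under the minimum mean of 1 normalized CPM in each comparison. The count was higher in the resistant line of both pairs. From 12 against 4 counts, the log2 ratio of LN-OlapR to LNCaP was 1.68 with an exact counting interval of 0.07 to 3.88. From 6 counts against 1, that of 2B-OlapR to C4-2B was 2.10, with an interval of -0.48 to 8.09 that includes 0. A difference in the 2B background was not detectable at this depth, and the value of the LN background rests on few counts. The ratio of C4-2B to LNCaP was -1.19 (-7.23 to 1.73), from 1 count against 4.

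**Figure D1:**
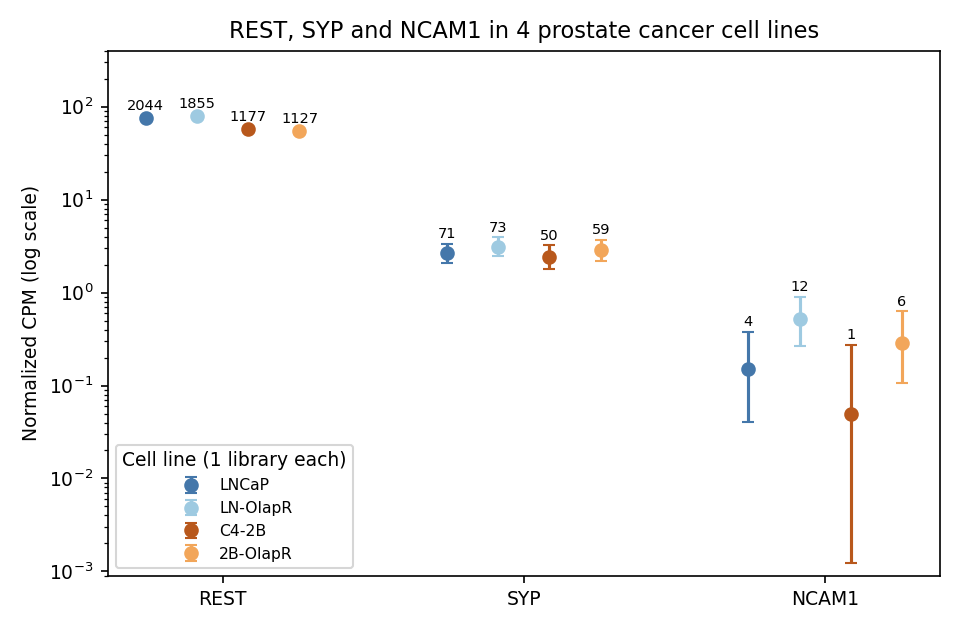
Normalized CPM of REST, SYP and NCAM1 (log axis) in LNCaP, LN-OlapR, C4-2B and 2B-OlapR, with 1 library per point, 95% Poisson intervals as bars and the number of counts printed above each point. REST lies between 54.4 and 79.5 with the LN lines above the 2B lines, SYP lies between 2.44 and 3.13 with all bars overlapping, and NCAM1 does not exceed 0.514.

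A gene was called different when the ratio was at least 2-fold in either direction and the mean of both libraries was at least 1 normalized CPM, a rule of size and not a test. Among all 15527 genes analysed for 2B-OlapR against C4-2B, 4.42% were at least 2-fold higher in the resistant line and 5.65% at least 2-fold lower. For LN-OlapR against LNCaP, the shares were 4.64% higher and 4.83% lower of 15373 genes. For C4-2B against LNCaP, they were 8.00% and 7.18% of 15580 genes. Of the 3 measured members, 2 (REST and SYP) passed the minimum, and neither was called in any comparison, a count of 0 of 2 in each. The comparison of C4-2B with LNCaP shares a library with each of the other comparisons. By rank, 42.5% of the genes analysed had a lower ratio than REST in the 2B background and 57.3% in the LN background, and for SYP the shares were 70.4% and 73.8%. Both genes therefore lay within the central part of the distribution in both pairs. The 4 libraries also allow 1 fit of resistant against parental lines over both backgrounds, with the background as a replicate block and 1 residual degree of freedom, in which the 2 resistant lines stand as replicates. In this fit, an alternative chosen after the data were seen, the log2 change was -0.01 for REST (adjusted p = 0.989, edgeR quasi-likelihood test) and 0.23 for SYP (adjusted p = 0.885, the same edgeR fit). Of 15645 genes fitted, 0, or 0.00%, had an edgeR adjusted p under 0.05, and 1273 had an unadjusted p under 0.05. NCAM1 was under the minimum.

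**Figure D2:**
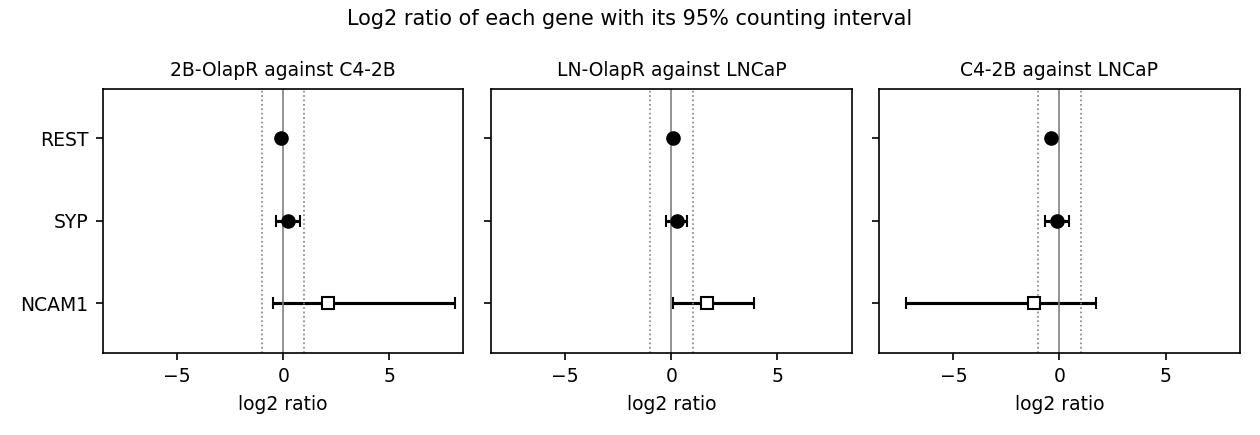
Log2 ratio of REST, SYP and NCAM1 in 2B-OlapR against C4-2B, LN-OlapR against LNCaP and C4-2B against LNCaP, with exact 95% counting intervals as bars. Open squares mark NCAM1, whose mean was under 1 normalized CPM, and dotted lines mark a 2-fold difference. REST and SYP lie within the dotted lines in each panel, and the intervals of NCAM1 reach from -7.23 to 8.09.

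Levels of different genes were compared per kilobase of the longest GENCODE transcript. On this scale, REST exceeded SYP in every library, by 9.85-fold in LNCaP, 8.70-fold in LN-OlapR, 8.06-fold in C4-2B and 6.54-fold in 2B-OlapR. A bulk library does not tell fewer cells of a kind from less RNA per cell, and these cannot be told apart for SYP.

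**Figure D3:**
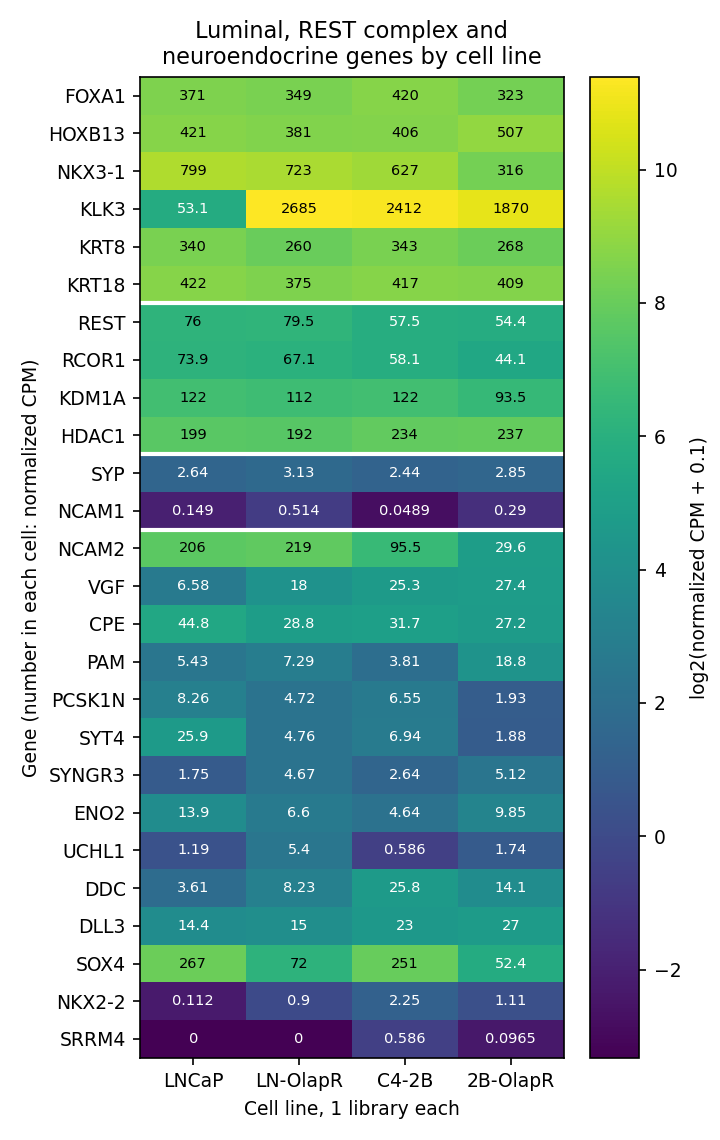
Normalized CPM, printed in each cell and colored as log2(normalized CPM + 0.1), in the 4 libraries, with blocks from top to bottom for luminal genes, REST and corepressors, SYP and NCAM1, and other neuroendocrine or neuronal genes. The genes drawn were chosen after their values were seen. KLK3 in LNCaP stands out in the top block at 53.1, REST stays between 54.4 and 79.5, and NCAM1 and SRRM4 do not exceed 0.586.

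The corepressors and regulators of REST were measured as a list of 18 genes, of which 17 passed the minimum. None of the 17 was at least 2-fold higher or lower in 2B-OlapR, and in LN-OlapR 0 were higher and 1 was lower. The median log2 ratio was -0.07 in the 2B background and -0.05 in the LN background, beside medians over all genes of -0.00026 and -0.0040. Counts of called genes in this and the later lists stand beside the shares over all genes. Those shares were 4.42% higher and 5.65% lower in the 2B background, and 4.64% and 4.83% in the LN background. No list was tested against them. RCOR2, a paralog of the REST corepressor CoREST, was the lowest in both pairs. It had 79 counts in LNCaP against 13 in LN-OlapR, and 37 in C4-2B against 19 in 2B-OlapR, with log2 ratios of -2.35 (-3.37 to -1.54) in the LN background and -0.96 (-1.86 to -0.14) in the 2B background. RCOR1, which encodes CoREST itself, had 73.9, 67.1, 58.1 and 44.1 normalized CPM in LNCaP, LN-OlapR, C4-2B and 2B-OlapR. Its log2 ratio was -0.14 (-0.24 to -0.04) in the LN background and -0.40 (-0.53 to -0.27) in the 2B background, under 2-fold in each. The highest of the list in both pairs was CTDSP1, a phosphatase that acts on REST, with 0.29 in the LN background and 0.19 in the 2B background. SRRM4, a neural splicing factor that can convert REST to a truncated form, had 0 counts in both LN lines, and 12 in C4-2B against 2 in 2B-OlapR. It was at least 5.25-fold higher in C4-2B than in LNCaP, with 3 counts set for LNCaP, and the log2 ratio of 2B-OlapR to C4-2B was -2.34 (-5.80 to -0.44).

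Genes known to be repressed by REST were split in direction among those that passed the minimum. Of 20 listed genes, 12 were measured, and in the 2B background 1 of 11 was at least 2-fold higher and 2, SYT4 and GDAP1, were lower, with a median log2 ratio of 0.11. In the LN background 1 of 10 was higher and 1 was lower, with a median of -0.10. L1CAM and GAD1, under the minimum there, had more counts in LN-OlapR than in LNCaP, 24 against 2 and 7 against 0. In the 2B background L1CAM, again under the minimum, had 17 counts in 2B-OlapR against 19 in C4-2B. VGF, a granin-like neuropeptide precursor, was the highest above the minimum in the LN background, and its promoter window held a match to the REST-binding element. VGF had 177 counts in LNCaP against 419 in LN-OlapR, and 518 in C4-2B against 568 in 2B-OlapR, or 6.58, 18.0, 25.3 and 27.4 normalized CPM. LNCaP was thus the low library, and C4-2B and 2B-OlapR overlapped within counting error. The log2 ratio was 1.45 (1.19 to 1.71) for LN-OlapR against LNCaP, 1.94 (1.69 to 2.20) for C4-2B against LNCaP, and 0.11 (-0.06 to 0.29) for 2B-OlapR against C4-2B. SYT4, a synaptotagmin of dense-core vesicles, was highest in LNCaP and had the lowest ratio of the list in both pairs. It had 697 counts in LNCaP against 111 in LN-OlapR, and 142 in C4-2B against 39 in 2B-OlapR, with log2 ratios of -2.44 (-2.75 to -2.16) in the LN background and -1.87 (-2.43 to -1.36) in the 2B background. The highest in the 2B background was GAD1, a GABA-synthesizing enzyme, with 30 counts in C4-2B against 64 in 2B-OlapR and a log2 ratio of 1.06 (0.43 to 1.75), against 0 counts in LNCaP and 7 in LN-OlapR. Between the parental lines, MAPK8IP2, a neuronal scaffold protein, was higher in C4-2B, with 2.17 (2.01 to 2.34), and SYT4 and UNC13A, a vesicle priming factor, were lower, with -1.90 and -1.03. GAD1, under the minimum there, was at least 13.1-fold higher in C4-2B, from 30 counts against 0, with 3 counts set for LNCaP. L1CAM, also under it, had 19 counts in C4-2B against 2 in LNCaP. The call for UNC13A was lost with a pseudocount of 2, at -0.945.

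The promoters of SYP and VGF are shown because SYP is the measured vesicle marker and VGF held the only close copy of the REST-binding element among the promoters searched for that list. The element was searched on both strands as TTCAGCACC and GGACAGCGC spaced by 2 bases, with up to 2 mismatches over the 18 letters. The promoter sequences are those of RefSeq on GRCh38.p14 and run 5′ to 3′ on the gene's strand over 300 bases. Entries were found for 2 of the 3 measured members, REST and SYP. A match was found in 19 of 35116 promoters, or 0.0541%, and in 1 of the 10 promoters available for 9 of the REST-repressed genes. In VGF the copy had 1 mismatch, lay on the opposite strand at bases 242 to 261 of the window, and is in capitals. The windows are chrX:49200144-49200443 on the minus strand for SYP and chr7:101165520-101165819 on the minus strand for VGF. No match at this limit lay in the SYP or REST windows, which says only that these letters are not in them.
SYP: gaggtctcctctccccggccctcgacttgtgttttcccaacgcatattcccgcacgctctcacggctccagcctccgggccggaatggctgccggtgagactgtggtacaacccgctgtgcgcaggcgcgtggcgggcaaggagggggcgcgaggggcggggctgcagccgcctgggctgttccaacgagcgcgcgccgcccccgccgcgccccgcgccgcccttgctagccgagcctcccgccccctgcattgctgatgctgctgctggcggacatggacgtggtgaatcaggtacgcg
VGF: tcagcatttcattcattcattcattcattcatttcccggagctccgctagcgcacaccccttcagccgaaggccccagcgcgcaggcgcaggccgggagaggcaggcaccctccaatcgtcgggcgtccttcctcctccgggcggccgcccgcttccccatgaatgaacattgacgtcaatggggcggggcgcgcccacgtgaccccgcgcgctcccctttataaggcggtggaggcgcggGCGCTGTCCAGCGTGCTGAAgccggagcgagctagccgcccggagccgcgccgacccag

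Of the granins and the enzymes that process prohormones, SCG3, PCSK1 and PCSK2 were not analysed here, and 4 of 7 listed genes were measured. In the 2B background 1 was at least 2-fold higher and 1 was lower, and in the LN background 1 was higher and 0 were lower, with medians of -0.05 and -0.11. PAM, which amidates peptide hormones, had 146 counts in LNCaP against 170 in LN-OlapR, and 78 in C4-2B against 390 in 2B-OlapR. 2B-OlapR was the high library, and the log2 ratio was 2.30 (1.95 to 2.67) in the 2B background and 0.42 (0.10 to 0.75) in the LN background. PCSK1N, a granin-like inhibitor of the prohormone convertase PCSK1, was the lowest in both pairs, with 222, 110, 134 and 40 counts in LNCaP, LN-OlapR, C4-2B and 2B-OlapR. Its log2 ratio was -1.75 (-2.31 to -1.24) in the 2B background and -0.81 (-1.15 to -0.47) in the LN background, the latter under 2-fold.

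Synaptic vesicle and exocytosis genes, the company of SYP, were measured for 13 of 17 genes, and 10 passed the minimum in each pair. In the 2B background 0 were at least 2-fold higher and 1 was lower, and in the LN background 1 was higher and 1 was lower. The median log2 ratio was 0.27 in the 2B background, with 8 of 10 above 0, and 0.27 in the LN background, with 6 of 10 above 0. The medians over all genes were -0.00026 and -0.0040, and the list was not tested against them. The list is not limited to genes as low as SYP, and SYNGR2 had 362 to 511 normalized CPM. SYNGR3, a synaptogyrin and, like SYP, a vesicle membrane protein, had 47 counts in LNCaP against 109 in LN-OlapR, and 54 in C4-2B against 106 in 2B-OlapR. Both resistant lines were above both parental lines, and the log2 ratio was 1.41 (0.91 to 1.94) in the LN background and 0.95 (0.47 to 1.46) in the 2B background, just under the limit. A gene on the opposite strand, AC005606.2, shares 698 bases with SYNGR3 and had 53 to 55 counts in each library, and its part in these values was not tested. UNC13A was the highest of the list in the 2B background, from 15 and 30 counts, with 0.96 (0.04 to 1.98), and had 41 and 51 counts in LNCaP and LN-OlapR. CADPS, a factor for dense-core vesicle exocytosis, was under the minimum, with 0 counts in 3 libraries and 16 in 2B-OlapR, at least 5.27-fold higher than in C4-2B with 3 counts set there.

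Among other neuroendocrine and neuronal markers, 8 of 17 were measured and 7 passed the minimum in each pair. In the 2B background 3 were at least 2-fold higher and 0 were lower, and in the LN background 2 were higher and 1 was lower. Over all genes, 4.42% were higher and 5.65% lower in the 2B background, and 4.64% and 4.83% in the LN background. UCHL1, a neuronal ubiquitin hydrolase, was called higher in both pairs. It had 32 counts in LNCaP against 126 in LN-OlapR, and 12 in C4-2B against 36 in 2B-OlapR, with log2 ratios of 2.17 (1.61 to 2.79) in the LN background and 1.53 (0.59 to 2.64) in the 2B background. ENO2, the neuron-specific enolase, went in opposite directions, with 374 counts in LNCaP against 154 in LN-OlapR, and 95 in C4-2B against 204 in 2B-OlapR. Its log2 ratio was -1.07 (-1.36 to -0.80) in the LN background and 1.08 (0.73 to 1.45) in the 2B background, and -1.58 (-1.92 to -1.25) between C4-2B and LNCaP. NEFL, a neurofilament chain, was the highest in the 2B background, with 17 counts in C4-2B against 126 in 2B-OlapR and a log2 ratio of 2.84 (2.14 to 3.70), and had 28 and 45 counts in LNCaP and LN-OlapR. DDC, the aromatic amino acid decarboxylase, had 97 counts in LNCaP against 192 in LN-OlapR, and 528 in C4-2B against 293 in 2B-OlapR, so that LNCaP was the low library. Its log2 ratio was 1.19 (0.83 to 1.56) in the LN background, 2.83 (2.52 to 3.17) between the parental lines and -0.87 (-1.08 to -0.66) in the 2B background. TUBB3, a neuronal tubulin, was the lowest in the 2B background with -0.90 (-1.08 to -0.72) and had -0.92 (-1.09 to -0.76) in the LN background. Both were under 2-fold, but scaling by total counts takes the value in the LN background past that limit. L1CAM, a neural adhesion molecule also listed as repressed by REST, was under the minimum, with 2 counts in LNCaP against 24 in LN-OlapR, and 19 in C4-2B against 17 in 2B-OlapR. The log2 ratio of L1CAM was 3.50 (1.78 to 6.92) in the LN background and -0.17 (-1.21 to 0.84) in the 2B background. DLL3, a Notch ligand found on neuroendocrine tumors, had 14.4, 15.0, 23.0 and 27.0 normalized CPM in LNCaP, LN-OlapR, C4-2B and 2B-OlapR, with log2 ratios of 0.07 (-0.15 to 0.28) in the LN background and 0.23 (0.06 to 0.41) in the 2B background.

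Neural and neuroendocrine transcription factors were measured for 9 of 20 genes. NEUROD1 was among the 11 not analysed here. In each pair 6 passed the minimum, not the same genes in both. Of these, 0 were at least 2-fold higher in either resistant line, 2 were lower in 2B-OlapR and 1 was lower in LN-OlapR. Factors under the minimum included some with more counts in the resistant line. ISL1, a LIM homeobox factor of neurons and islet cells, had 2 counts in LNCaP against 33 in LN-OlapR, and 2 in C4-2B against 10 in 2B-OlapR. The log2 ratio of ISL1 was 3.95 (2.28 to 7.35) in the LN background and 2.05 (0.07 to 5.53) in the 2B background. The medians were -0.65 in the 2B background and -0.09 in the LN background. SOX4, a progenitor factor that is not confined to neural cells, was the lowest in both. It had 7165 counts in LNCaP against 1680 in LN-OlapR, and 5132 in C4-2B against 1085 in 2B-OlapR, and both resistant lines were below both parental lines. The log2 ratio of SOX4 was -1.89 (-1.97 to -1.81) in the LN background and -2.26 (-2.36 to -2.17) in the 2B background. NKX2-2, a homeobox factor, had 3, 21, 46 and 23 counts in LNCaP, LN-OlapR, C4-2B and 2B-OlapR. Its log2 ratio was -1.003 (-1.81 to -0.27) in the 2B background, a call lost under 3 of the 4 alternatives of scaling and pseudocount, which ranged up to -0.959, and 4.13 (2.70 to 6.66) between C4-2B and LNCaP. In the LN background NKX2-2 was under the minimum, with a log2 ratio of 2.82 (1.27 to 5.40). The highest were LHX2 in the 2B background, with 0.59 (0.11 to 1.09), and SOX11 in the LN background, with 0.54 (0.09 to 1.002). Between C4-2B and LNCaP, SOX11 was higher, with 1.27 (0.86 to 1.70), and MYT1, a neural zinc finger factor, was lower, with -2.59 (-3.55 to -1.83) from 14 against 114 counts.

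The list around NCAM1 held its paralog, its polysialyltransferases and its receptor partners. NCAM2, its paralog, had 205.5 normalized CPM in LNCaP against 219.4 in LN-OlapR, and 95.5 in C4-2B against 29.6 in 2B-OlapR. The LN lines were close to each other and 2B-OlapR was the low library, with log2 ratios of 0.09 (0.04 to 0.15) in the LN background, -1.69 (-1.82 to -1.56) in the 2B background and -1.10 (-1.18 to -1.03) between the parental lines. ST8SIA4, a polysialyltransferase that modifies NCAM1, had 5 counts in LNCaP against 2 in LN-OlapR, and 33 in C4-2B against 336 in 2B-OlapR, and its log2 ratio in the 2B background was 3.31 (2.81 to 3.89). The other polysialyltransferase, ST8SIA2, had 1, 6, 0 and 16 counts in the same order, at least 5.27-fold higher in 2B-OlapR with 3 counts set for C4-2B, and GFRA1, a GDNF family co-receptor that can pair with NCAM1, had 0, 3, 0 and 16. FGFR1, a growth factor receptor that NCAM1 engages, was called lower in both pairs, with 564, 170, 299 and 135 counts and log2 ratios of -1.52 (-1.78 to -1.28) in the LN background and -1.16 (-1.47 to -0.87) in the 2B background. Of the 5 genes listed, 3 passed the minimum in the 2B background, where 1 was higher and 2 were lower, and 2 passed in the LN background, where 0 were higher and 1 was lower.

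**Figure D4:**
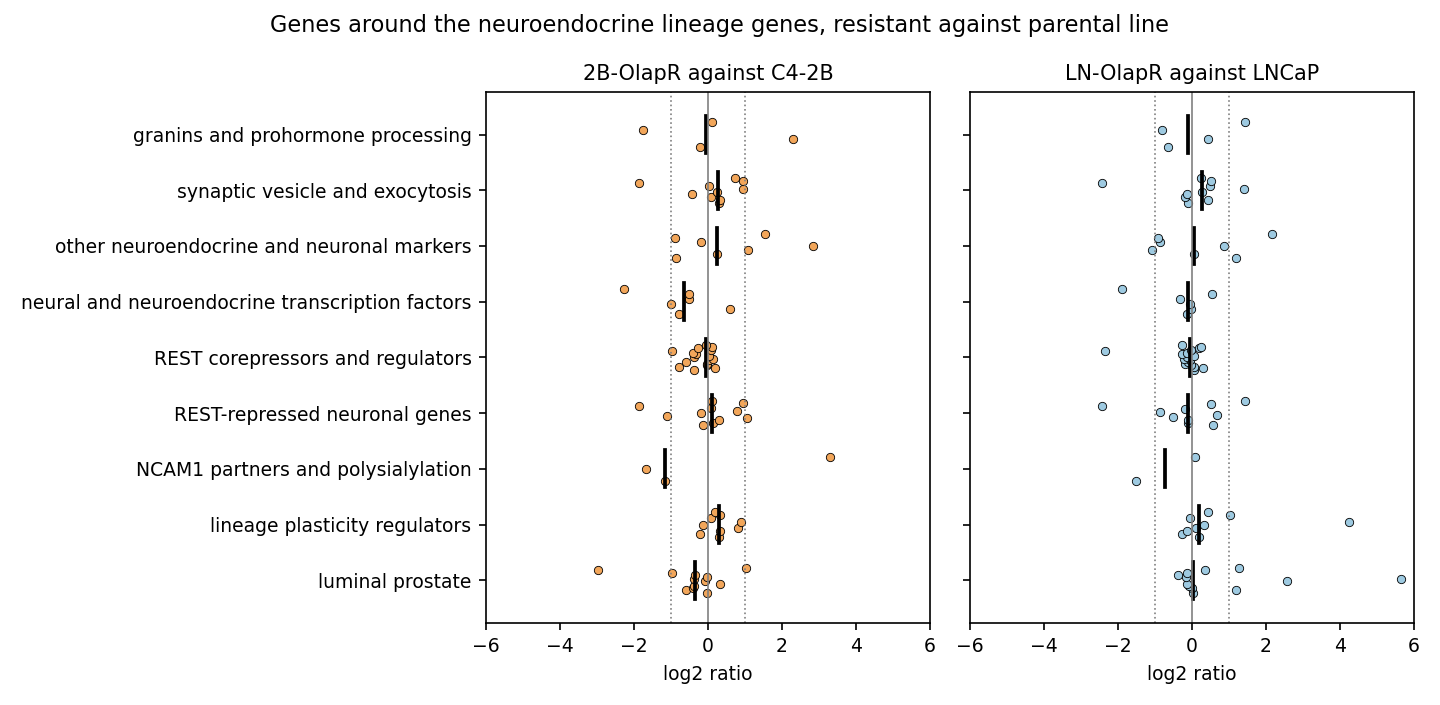
Log2 ratios of the genes in 9 of the 12 fixed lists (basal, fibroblast, and blood and endothelial markers are not drawn) for 2B-OlapR against C4-2B (left) and LN-OlapR against LNCaP (right), 1 point per gene above the minimum, with the list's median as a black bar and a 2-fold difference as dotted lines. The medians of the other lists drawn lie between -0.65 and 0.29, RCOR2 stands alone among the REST corepressors in the right panel at -2.35, and the list of NCAM1 partners, with 3 and 2 points, has medians of -1.16 and -0.71.

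Regulators linked to lineage plasticity comprised 9 genes, all measured. In the 2B background 0 were called in either direction, and in the LN background 2 were at least 2-fold higher and 0 were lower, with medians of 0.29 and 0.20. PEG10, a retrotransposon-derived gene expressed in neuroendocrine prostate cancer, was the highest in both, with 32 counts in LNCaP against 533 in LN-OlapR, and 22 in C4-2B against 42 in 2B-OlapR. LN-OlapR was the high library, and the log2 ratio was 4.24 (3.75 to 4.83) in the LN background and 0.90 (0.14 to 1.73) in the 2B background. RB1, a tumor suppressor often lost in neuroendocrine prostate cancer, had 754, 1344, 638 and 810 counts in LNCaP, LN-OlapR, C4-2B and 2B-OlapR. Its log2 ratio of 1.04 (0.91 to 1.17) in the LN background was 0.954 when scaled by total counts, which ended the call. The lowest of the list was CBX2, a Polycomb protein, with -0.23 in the 2B background and -0.25 in the LN background.

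The luminal genes had a median log2 ratio of -0.36 in the 2B background, where 1 of 12 was at least 2-fold higher and 1 was lower. In the LN background 4 of 12, KLK3, KLK2, TMPRSS2 and FKBP5, were higher and 0 were lower, and the median was 0.02, or -0.064 when scaled by total counts. TMPRSS2, a transmembrane serine protease, was called higher in both pairs, with 1.28 (1.23 to 1.33) in the LN background and 1.01 (0.95 to 1.08) in the 2B background, where scaling by total counts gave 0.972. The lowest were SLC45A3, the gene for prostein, in the 2B background, with -2.99 (-3.06 to -2.91), and KRT8, a luminal keratin, in the LN background, with -0.39. KLK3 was the highest in the LN background, with 5.66, and between the parental lines, with 5.50, and FKBP5, a co-chaperone, was also called between these, with 1.01 (0.96 to 1.06). The fibroblast marker COL1A1 was lower in the resistant line of the 2B background, with -1.17 (-1.46 to -0.89), and had -0.88 in the LN background. Its part in the values of other genes was not tested.

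Between C4-2B and LNCaP, the counts of called genes in the same lists were read beside the 8.00% and 7.18% over all genes. The granin list had 1 of 4 genes higher, VGF, and 0 lower, and the vesicle list had 0 of 10 higher and 2 lower, SYT4 and UNC13A. The other neuroendocrine markers had 1 of 5 higher, DDC, and 1 lower, ENO2. The transcription factors had 2 of 7 higher, NKX2-2 and SOX11, and 1 lower, MYT1. Neither the 17 REST corepressors nor the 9 plasticity regulators held a called gene. The REST-repressed list had 2 of 10 higher and 2 lower, with a median log2 ratio of 0.07, beside -0.016 over all genes. Of the 2 NCAM1 partners that passed, 1 was lower, NCAM2, and of the 12 luminal genes 2 were higher, KLK3 and FKBP5, and 0 lower.

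The genes with a pattern closest to that of REST were sought among 9913 named genes whose mean reached 10 normalized CPM, by the Euclidean distance of their log2 levels centered over the 4 libraries. The nearest were ZNF248, a zinc finger gene, at a distance of 0.027, and DDX21, an RNA helicase gene, at 0.032. ZNF248 had 21.1, 22.2, 16.3 and 15.1 normalized CPM, and DDX21 had 405.8, 423.6, 305.7 and 282.4, in LNCaP, LN-OlapR, C4-2B and 2B-OlapR. In total, 60 genes lay within a distance of 0.1, so with 4 libraries the pattern of REST was not particular to it. SYP and NCAM1 did not reach 10 normalized CPM in any library and were not compared in this way.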

How the data were processed

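RNA-seq was performed on 4 cell lines with 1 library each, and stranded mRNA libraries were made from total RNA. The deposited values are estimated counts for each gene, made by the authors without normalization between libraries. The submitters' processing notes name STAR, Partek, GRCh38 and hg38, while versions, annotation and strand setting are not given in the sources used here. Of the deposited estimated count values 46.2% are not whole, and the smallest sum of any gene over the 4 libraries is 10. All 4 count columns were mapped to samples by title.

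Values were rounded to whole counts and scaled by TMM factors (edgeR 4.0.16, R 4.3.3). Further steps used Python 3.11.15, numpy 2.4.6, pandas 2.3.3, SciPy 1.17.1 and matplotlib 3.10.9. Log2 ratios used a pseudocount of 0.5 counts. A minimum mean of 1 normalized CPM over both libraries was required, and genes at least 2-fold apart were called. As no cell line has replicates, no model was fitted within a pair. Resistance over both backgrounds was fitted with the edgeR quasi-likelihood test and Benjamini-Hochberg adjustment, with the background as a block, pairing each resistant line with the parent it was derived from. Intervals at the 95% level are exact Poisson intervals for levels and exact conditional binomial intervals for ratios. The ratio intervals and the fit were tested on simulated data. Changes simulated for the fit were larger than any member's ratio, in genes of at least 10 normalized CPM, a level that SYP did not reach. That check does not tell whether the fit could find smaller changes.

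The members and the 12 lists, with 123 genes of which 86 were measured, were chosen with earlier results of these data known. Genes named are the members, the highest and lowest of each list in each pair, those called in both pairs or between the parental lines, and KLK3, NEUROD1, SRRM4, RCOR1, PCSK1, PCSK2, ENO2 and DLL3, with the genes nearest to REST in pattern. Some genes of this rule are not reported here. Other genes named or drawn beside these were chosen after their values were seen. Alternatives were other scalings, among them DESeq2 1.42.0 size factors, a pseudocount of 2, other minimum means, a fold of 1.5, unrounded values and normal intervals. Lengths and positions come from GENCODE release 29, whose gene versions differ from those of the table. An opposite-strand gene with counts overlaps 22 of the 89 genes.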

Additional observations from a re-analysis of the deposited data

Results flagged for a closer look

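ENO2 stood out because its ratio of resistant to parental line was past 2-fold in opposite directions in the 2 backgrounds. The log2 ratio was 1.08 for 2B-OlapR against C4-2B and -1.07 for LN-OlapR against LNCaP, and the difference between them was not tested, with 1 library per cell line. Of the members and listed genes, no other was called in opposite directions. The counts were 374 in LNCaP against 154 in LN-OlapR, and 95 in C4-2B against 204 in 2B-OlapR, so LNCaP was the highest library. Both calls held under the 4 alternatives of scaling and pseudocount, from 1.04 to 1.11 in the 2B background and from -1.16 to -1.06 in the LN background.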

How the results depend on the processing

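Without a minimum mean, the number of members at least 2-fold different became 1 in place of 0 in each of the 3 comparisons, since NCAM1 then entered with at most 12 counts in a library. Scaling, pseudocount, fold and rounding left that count at 0. A minimum mean of 10 also gave 0, but SYP then dropped out and only REST was left. The sign of each member's ratio held under every scaling and pseudocount except for REST in the LN background. Normal intervals for NCAM1 were narrower, with upper bounds of 4.66 in the 2B background and 3.23 in the LN background. Of 43 calls among listed genes, 4 were lost under an alternative of scaling or pseudocount. They were NKX2-2 and TMPRSS2 in the 2B background, RB1 in the LN background and UNC13A between the parental lines. A minimum mean of 10 was not applied to the 43 calls, and it would drop some of them. UCHL1 is among those, with means of 1.16 in the 2B background and 3.30 in the LN background. NEFL in the 2B background, with 3.46, is another. Scaling by total counts shifted the median of all genes to -0.042 in the 2B background and -0.088 in the LN background. The fit with the background as a replicate block called 0 genes, as did the fit without the block, with 1273 and 365 genes at an unadjusted p under 0.05 (edgeR). Leaving out a library would leave a pair without a comparison. Depth left the NCAM1 ratios wide, from 1 to 12 counts in a library.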
